A study of Homo sapiens with 16 samples.

Results

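The mRNAs described here are those of 9 genes that are recurrently altered in head and neck squamous cell carcinoma: PIK3CA, HRAS, FAT1, NOTCH1, NSD1, CASP8, EP300, NFE2L2 and RB1. They and the pathway lists below were chosen by name, with earlier results of these data known. All 9 matched a row in each of the authors' deposited tables, which list 16324 genes. RNA bound to Strep-tagged proteins was sequenced (RIP-seq) from UM-SCC-1 cells, a cell line established from such a tumour. The 16 libraries comprise 3 pull-down and 3 input libraries of the tagged empty vector (Strep-Vec-1), 3 and 3 of Strep-ALKBH5, and 2 and 2 of Strep-RBM33. Cells of all groups were infected with lentivirus and selected with puromycin, so each bait is an added, tagged copy of the protein. Pull-downs used StrepTactin-XT. The labels name no animal and no second cell line. Nothing in them says that replicates are separate cultures, so the p-values may measure technical spread.

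ALKBH5 removes the methyl mark m6A from RNA, and RBM33 is an RNA-binding protein that the series' title calls a reader of that mark. The driver genes act in pathways that squamous tumours commonly alter. PIK3CA and HRAS carry growth signals, NOTCH1 promotes squamous differentiation, and FAT1 is a large cadherin with tumour suppressor roles. NSD1 and EP300 modify histones, CASP8 starts death receptor apoptosis, NFE2L2 drives the oxidative stress response, and RB1 restrains entry into the cell cycle.

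Each of the authors' deposited tables gives, for a gene, the log2 fold change of the comparison, the average abundance as log2 CPM (read counts scaled to library size) and a p-value adjusted over all 16324 genes. Neither table states the groups behind a ratio or its direction, so values are called positive or negative as given. A gene is called where the authors' adjusted p is under 0.05. Both comparisons are labelled siCtrl, which no library title names, so whether they rest on these 16 libraries is not stated. The files used here hold no value per library, so the depth is unknown and neither SD nor n stands beside a value. Whether both comparisons used shared control libraries is not stated either, so their values are set side by side and no agreement between them is calculated. As a check of the labels, the mRNA of ALKBH5 had an average of 12.30 log2 CPM in the authors' deposited ALKBH5 table and 6.68 in that for RBM33. That of RBM33 had 13.90 in the authors' deposited RBM33 table and 7.81 in the other, so each bait was most abundant in its own comparison.

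The labelled cell type was checked against its markers. Of 21 squamous epithelial markers, 15 matched no row of the authors' deposited tables, among them the basal keratins KRT5 and KRT14, the squamous master regulator TP63 and the surface proteins EPCAM and CD44. The desmosomal cadherin DSC3 was the most abundant of the other 6 for both baits in the authors' deposited tables, with an average of 5.05 log2 CPM for ALKBH5 and 5.46 for RBM33. CDH1, the epithelial cadherin, averaged 0.60 and 0.33 in the authors' deposited tables. By contrast, 10 of 14 genes listed as markers of an embryonic kidney line matched. The neurofilament gene NEFL averaged 8.10 and 7.42 log2 CPM in the authors' deposited ALKBH5 and RBM33 tables, above 97.4% and 94.7% of protein-coding genes, and was the highest of these markers. NEFM (7.72 and 7.18), UCHL1 (6.86 and 6.37), HOXD10 (6.15 and 6.04), CRABP2 (5.87 and 5.69) and LIN28B (5.78 and 6.39) were also high. The medians of protein-coding genes were 4.43 and 4.46 in the authors' deposited tables. TUBB3 (2.00 and 1.21), PAX2 (1.83 and 1.85), LHX1 (1.79 and 0.72) and SOX2 (2.57 and 1.41) were low in the authors' deposited tables. NEFH and INA were among the genes that matched no row. Summed over the matched markers, the squamous list reached 6.29 on the log2 CPM scale and the kidney line list 9.65 in the authors' deposited ALKBH5 table, and 6.47 and 9.25 in that for RBM33. These sums cover 6 and 10 genes and are not scaled to listed length, so they do not rank the lists. The shares of protein-coding genes given for DSC3, EGFR and NEFL are not scaled to length either. With KRT5, KRT14 and TP63 matching no row, the defining squamous markers go against the label, and the material is called by its label, cells labelled UM-SCC-1, from here on. Fibroblast markers matched for 4 of 8 genes and leukocyte markers for 1 of 6. In bulk RNA, fewer cells of a type and less RNA per cell cannot be told apart. The part of cell identity in the values below was not tested.

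**Figure D1:**
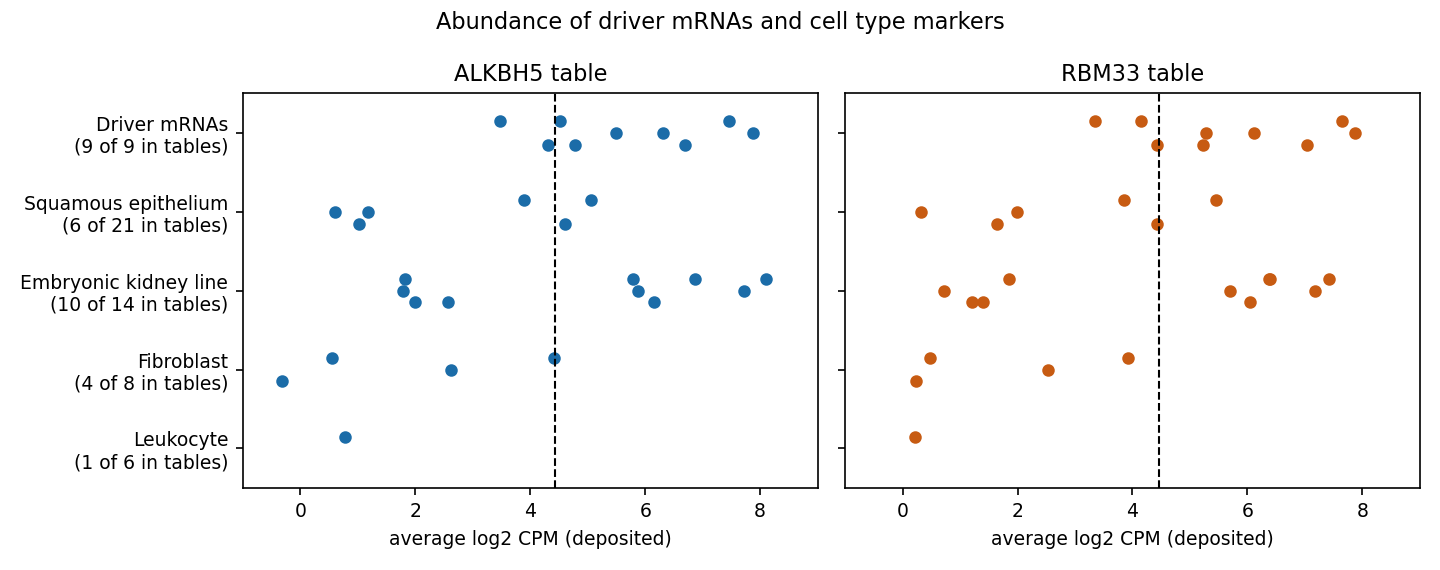
Average log2 CPM (x axis, from the authors' deposited tables) of the 9 driver mRNAs and of the genes of 4 marker lists; each point is a gene, each panel a table, and the dashed line is the median of protein-coding genes. Only 6 of 21 squamous markers have a point, and the highest kidney line marker, NEFL, lies at 8.10 and 7.42.

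The driver mRNAs themselves were neither rare nor all abundant. Without scaling to listed length, their levels lay above those of 31.4% (PIK3CA) to 96.6% (NSD1) of protein-coding genes in the authors' deposited ALKBH5 table. Their average log2 CPM ran from 3.48 (PIK3CA) to 7.87 (NSD1) in the authors' deposited ALKBH5 table and from 3.34 (PIK3CA) to 7.87 (NSD1) in that for RBM33. The medians of protein-coding genes were 4.43 and 4.46 in the authors' deposited tables. Levels of different genes can be set against each other only per length. Per kilobase of listed gene length, on the log2 CPM scale, HRAS was highest in the authors' deposited ALKBH5 and RBM33 tables, at 5.40 and 5.20. EP300 followed at 3.92 and 4.09, and NSD1 at 3.92 and 3.91. PIK3CA was lowest, at -0.62 and -0.76, below NOTCH1 at 1.10 and 0.74. NFE2L2 (2.99 and 2.79), FAT1 (2.67 and 3.02), RB1 (2.09 and 2.55) and CASP8 (1.46 and 1.56) lay between them. With no value per library, which neighbours in this order differ beyond their spread cannot be given. The listed length need not be that of a single mRNA, so these levels are approximate.

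The 9 mRNAs were spread over both signs. For ALKBH5, 4 were positive, 2 were negative and 3 were not called in the authors' deposited table; the median log2 fold change was 0.11 and the range was from -1.97 to 1.31. Over all genes of the authors' deposited ALKBH5 table, 30.5% were called positive and 29.1% negative, with a median of 0.03. For RBM33, 4 were likewise positive, 2 negative and 3 not called, with a median of -0.30 and a range from -1.45 to 1.75 in the authors' deposited table. There, 24.0% of all genes were called positive and 27.0% negative, with a median of -0.02. Among 9 genes, 1 gene is 11.1%, so the shares of 44.4% positive and 22.2% negative do not set the drivers apart from the background. Among protein-coding genes alone, the authors' deposited ALKBH5 table has 27.5% called positive and 33.3% called negative. The shares there with RBM33 as bait are 21.5% and 31.2%. Counts of the pathway lists below are to be read beside these shares, and no list was tested against them.

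**Figure D2:**
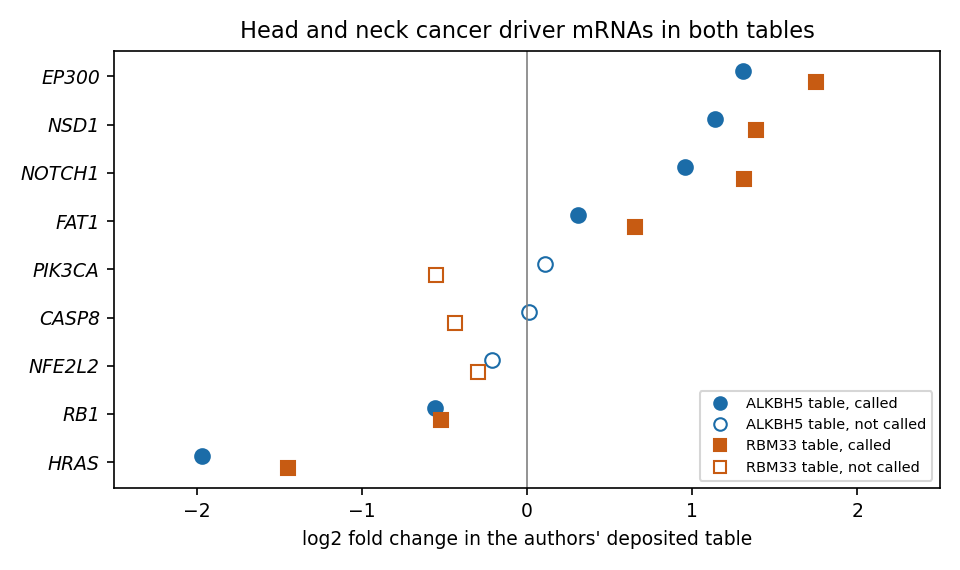
Log2 fold changes of the 9 driver mRNAs (x axis) in the authors' deposited tables for ALKBH5 (circles) and RBM33 (squares); filled symbols are called at an adjusted p under 0.05 and open ones are not. EP300, NSD1, NOTCH1 and FAT1 lie on the positive side and RB1 and HRAS on the negative side for both baits.

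EP300, a histone acetyltransferase and coactivator, had the largest positive value of the drivers (ENSG00000100393, hg38 chromosome 22, 41092592 to 41180077, plus strand). Its log2 fold change was 1.31 in the authors' deposited ALKBH5 table (adjusted p = 1.24e-06), a ratio of 2.48. In the authors' deposited RBM33 table it was 1.75 (adjusted p = 2.13e-05), a ratio of 3.36. With the direction turned, these ratios are 0.404 and 0.297. As given, 88.3% and 94.7% of protein-coding genes had a lower value in the authors' deposited tables, and 11.7% and 5.28% would with the direction turned. CREBBP, its closest paralog, was also positive, at 0.66 (adjusted p = 0.000502) and 0.92 (adjusted p = 0.000701) in the authors' deposited ALKBH5 and RBM33 tables.

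Among 9 histone acetyltransferase genes, EP300 included, 5 were positive and 1 negative for ALKBH5, and with RBM33 they numbered 4 and 0, in the authors' deposited tables. The other positive genes for both were KAT2A (2.10 and 1.70), the catalytic subunit of the SAGA complex, and KAT6A (1.16 and 1.30), a MYST family enzyme, in the authors' deposited tables. KAT5, the TIP60 enzyme, was negative for ALKBH5 at -0.47 (adjusted p = 0.0257) and stood at -0.09 for RBM33 without a call (adjusted p = 0.701) in the authors' deposited tables. KAT5 was the only acetyltransferase gene of the list with a negative call, and KAT2A (ALKBH5) or EP300 (RBM33) had the largest value. EP300, CREBBP and KAT6A fall in the longest class of listed length used below, from 8652 bases, while KAT2A (3775 bases) and KAT5 (3732) are shorter. In that class, 52.6% (ALKBH5) and 46.8% (RBM33) of protein-coding genes were called positive. Over all protein-coding genes, 27.5% (ALKBH5) and 21.5% (RBM33) were called positive. Whether this list differs from either background was not tested.

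NSD1, which dimethylates histone H3 at lysine 36, was the next driver on the positive side (ENSG00000165671, chromosome 5, 177133025 to 177300213, plus strand). It had 1.14 in the authors' deposited ALKBH5 table (adjusted p = 6.15e-06) and 1.39 in that for RBM33 (adjusted p = 0.000127). Its paralogs were not called by either comparison. NSD2 stood at 0.08 (adjusted p = 0.642) and 0.33 (adjusted p = 0.0987), and NSD3 at 0.08 (adjusted p = 0.600) and 0.17 (adjusted p = 0.354), in the authors' deposited ALKBH5 and RBM33 tables. The listed lengths are 15516 bases for NSD1, 15245 for NSD3 and 20352 for NSD2. Whether NSD1 differs from its paralogs was not tested, since that needs values per library. The other lysine 36 methyltransferases, SETD2 (1.15 and 1.18) and ASH1L (1.64 and 1.44), were positive for both baits in the authors' deposited tables. This gave 3 positive and 0 negative of 5 genes for each bait. All 5 fall in the longest class of listed length used below, from 8652 bases. In that class, 52.6% (ALKBH5) and 46.8% (RBM33) of protein-coding genes were positive, and 15.4% and 12.7% negative, in the authors' deposited tables. With 5 genes, the counts do not set the list apart from its class.

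NOTCH1, a receptor whose cleaved intracellular part enters the nucleus to activate transcription, was the third positive driver (ENSG00000148400, chromosome 9, 136494433 to 136546048, minus strand). Its value was 0.96 in the authors' deposited ALKBH5 table (adjusted p = 0.000582) and 1.31 in that for RBM33 (adjusted p = 0.000576). The receptors NOTCH2 (1.35 and 1.06) and NOTCH3 (1.32 and 1.23) were called positive with it in the authors' deposited ALKBH5 and RBM33 tables. Ligand JAG2 (1.17 and 0.92) and the coactivator MAML1 (1.25 and 1.34) were positive as well for both baits in the authors' deposited tables. HES1 (-1.11 and -1.22) and HEY1 (-0.85 and -0.94), the transcriptional repressors that Notch signalling induces, were negative for both baits in the authors' deposited tables. The pathway therefore held called transcripts on each side: of 23 genes, 10 were positive and 4 negative for ALKBH5, and with RBM33 they numbered 8 and 6, with medians of 0.24 and 0.23 in the authors' deposited tables. HES1, at 2059 bases, is the shortest of the genes named here for this pathway. NOTCH1, NOTCH2 and NOTCH3 fall in the longest class of listed length, while JAG2 (6396 bases) and MAML1 (5967) are shorter. Positive calls made up 52.6% (ALKBH5) and 46.8% (RBM33) of that class. They made up 27.5% (ALKBH5) and 21.5% (RBM33) of all protein-coding genes, and the list was not tested against these shares.

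The reference tables used here hold promoter windows but no transcript sequences, so the mRNAs themselves are not printed. To show the loci at both ends of the range, the 250 bases before the RefSeq start site (GRCh38.p14) are printed 5′ to 3′ for EP300 and NOTCH1, which were positive for both baits, and for HRAS, the most negative driver. The windows are chr22:41092342-41092591 (plus strand), chr9:136546049-136546298 (minus strand) and chr11:535577-535826 (minus strand). Capitals mark GGGCGG, the GC box that SP family factors can bind, or its reverse complement CCGCCC, the only motif searched.
EP300: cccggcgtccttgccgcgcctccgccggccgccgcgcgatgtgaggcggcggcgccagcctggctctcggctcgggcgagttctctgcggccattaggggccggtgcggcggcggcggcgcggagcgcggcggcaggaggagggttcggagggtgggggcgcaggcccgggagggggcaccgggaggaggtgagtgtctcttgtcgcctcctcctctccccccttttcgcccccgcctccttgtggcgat
NOTCH1: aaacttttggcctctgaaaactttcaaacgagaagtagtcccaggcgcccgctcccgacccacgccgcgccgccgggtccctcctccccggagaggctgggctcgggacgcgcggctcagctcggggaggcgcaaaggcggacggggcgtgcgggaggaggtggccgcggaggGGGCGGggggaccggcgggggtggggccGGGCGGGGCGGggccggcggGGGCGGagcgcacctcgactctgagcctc
HRAS: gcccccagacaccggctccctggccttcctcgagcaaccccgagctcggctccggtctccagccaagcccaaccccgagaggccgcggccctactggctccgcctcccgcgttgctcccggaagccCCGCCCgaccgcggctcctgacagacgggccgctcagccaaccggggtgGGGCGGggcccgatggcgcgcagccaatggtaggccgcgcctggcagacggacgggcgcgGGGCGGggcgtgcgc
The window of NOTCH1 holds 4 matches and that of HRAS 3, and EP300 has 0. Of 35116 RefSeq windows cut to the same length, 42.6% hold the motif on either strand. G and C make up 76.8%, 76.0% and 77.2% of the windows of EP300, NOTCH1 and HRAS, against a median of 58.0% over all windows, so all 3 windows lie above that median and within a narrow range. For EP300 and NOTCH1 the RefSeq start is the start listed by the authors, and for HRAS it lies 1711 bases inside the listed locus. RIP-seq measures RNA, so these letters identify the loci and are no site of binding by ALKBH5 or RBM33. All 9 drivers matched RefSeq by symbol.

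FAT1 is an atypical cadherin with a very large extracellular part (ENSG00000083857, chromosome 4, 186587794 to 186726722, minus strand). It was called positive with smaller values, 0.31 in the authors' deposited ALKBH5 table (adjusted p = 0.0459) and 0.65 in that for RBM33 (adjusted p = 0.00327). The call for ALKBH5 is the one closest to the threshold among the drivers and is lost at an adjusted p under 0.01. FAT4 (2.11 and 2.02) and the cadherin DCHS1, its binding partner (2.38 and 2.49), had larger positive values for both baits in the authors' deposited tables, whereas FAT2 and FAT3 matched no row. Both were less abundant than FAT1: FAT4 averaged 3.52 and 3.06 log2 CPM and DCHS1 1.52 and 1.31, against 6.69 and 7.04 for FAT1. Of 18 matched genes for atypical cadherins and the Hippo pathway, 5 were positive and 5 negative for ALKBH5, and with RBM33 they numbered 5 and 3, in the authors' deposited tables. LATS1, a Hippo kinase, was positive (0.66 and 0.88), and MOB1A, an activator of LATS kinases (-1.16 and -0.84), and TEAD4, a transcription factor of the pathway (-0.87 and -0.66), were negative for both baits in the authors' deposited tables.

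HRAS, the small GTPase at the head of the MAP kinase cascade, lay at the other end (ENSG00000174775, chromosome 11, 532242 to 537287, minus strand). It had -1.97 in the authors' deposited ALKBH5 table (adjusted p = 5.26e-07), a ratio of 0.256. In the authors' deposited RBM33 table it had -1.45 (adjusted p = 2.35e-05), a ratio of 0.367. With the direction turned, these ratios are 3.91 and 2.73. As given, 2.29% of protein-coding genes had a lower value in the authors' deposited ALKBH5 table and 9.06% in the RBM33 table; with the direction turned, 97.7% and 90.9% would.

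NRAS, a paralog of HRAS, was called negative too. It had -1.12 (adjusted p = 3.55e-05) and -0.83 (adjusted p = 0.000932) in the authors' deposited ALKBH5 and RBM33 tables. Its listed length is 4326 bases, against 1880 for HRAS. The adaptor GRB2 (-0.85 and -0.71), which acts upstream of RAS, the scaffold SHOC2 (-0.84 and -0.76) and the kinase MAP2K2 (-0.79 and -0.90) were negative for both baits in the authors' deposited tables. NF1, the large GTPase-activating protein that switches RAS off, was positive (0.82 and 0.99) for both baits in the authors' deposited tables. Of 17 genes in this pathway, 5 were positive and 9 negative for ALKBH5, and with RBM33 they numbered 4 and 9. Their medians were -0.44 and -0.54 in the authors' deposited tables. Negative calls made up 33.3% (ALKBH5) and 31.2% (RBM33) of all protein-coding genes, and the list was not tested against these shares.

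RB1, the retinoblastoma protein that holds E2F factors in check, was the other negative driver (ENSG00000139687, chromosome 13, 48303744 to 48599436, plus strand). It had -0.56 in the authors' deposited ALKBH5 table (adjusted p = 0.00618) and -0.52 in that for RBM33 (adjusted p = 0.0229). The related pocket protein gene RBL2 was positive instead, at 0.61 (adjusted p = 0.00171) and 0.67 (adjusted p = 0.0175), and RBL1 had 0.36 (adjusted p = 0.0304) in the authors' deposited ALKBH5 table and 0.24 (adjusted p = 0.192) in the other. The difference for RBL1 between the comparisons was not tested. CDK4, which phosphorylates RB1, had -1.27 and -1.33, and the E2F partner TFDP1 had -0.93 and -1.01, in the authors' deposited tables, all called. Of 21 genes in the RB and E2F list, 11 were negative and 4 positive for ALKBH5, and 11 and 2 for RBM33, with medians of -0.58 and -0.52 in the authors' deposited tables. Of all protein-coding genes, 33.3% and 31.2% were negative in the authors' deposited tables. E2F3 (0.71 and 0.61) was positive for both baits. RB1 overlaps RCBTB2 on the opposite strand over 44294 bases. That gene averaged 0.81 and 1.23 log2 CPM in the authors' deposited tables, against 4.78 and 5.23 for RB1, and whether reads were shared was not tested.

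PIK3CA, CASP8 and NFE2L2 were called in neither table. PIK3CA, the catalytic subunit of a PI3 kinase, had 0.11 (adjusted p = 0.706) and -0.55 (adjusted p = 0.287) in the authors' deposited ALKBH5 and RBM33 tables (ENSG00000121879, chromosome 3, 179148114 to 179240093, plus strand). Its value for RBM33 was as far from 0 as that of RB1, which was called; PIK3CA was the least abundant driver in both tables. Its 3′ end overlaps KCNMB3 on the opposite strand over 3403 bases, and KCNMB3 had 1.58 and 1.54 in the authors' deposited tables at averages of 1.72 and 1.58 log2 CPM; whether reads were shared was not tested.

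The partners of PIK3CA were mixed. The regulatory subunit PIK3R1 stood at -0.36 (adjusted p = 0.117) and -0.44 (adjusted p = 0.196) in the authors' deposited tables, with no call. PIK3R2 was negative for ALKBH5 (-0.69, adjusted p = 0.00108) and not called for RBM33 (-0.40, adjusted p = 0.130) in the authors' deposited tables. The downstream kinases parted: AKT2 was positive (1.09 and 1.20) and AKT1 negative (-0.52 and -0.62) for both baits in the authors' deposited tables. Their listed lengths are 15902 and 11162 bases. Of 12 genes in all, 2 were positive and 3 negative for ALKBH5, and with RBM33 they numbered 2 and 2, in the authors' deposited tables.

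CASP8, the initiator caspase of death receptors, had 0.01 (adjusted p = 0.976) and -0.44 (adjusted p = 0.0994) in the authors' deposited ALKBH5 and RBM33 tables (ENSG00000064012, chromosome 2, 201233443 to 201287711, plus strand). Its adaptor FADD was negative, at -0.78 (adjusted p = 0.00229) and -1.08 (adjusted p = 0.00165), as was the executioner caspase CASP6 (-1.63 and -1.43), for both baits in the authors' deposited tables. CFLAR, the catalytically inactive relative that blocks CASP8 (0.66 and 0.88), the kinase RIPK1 (0.56 and 0.73) and the receptor TNFRSF10B (0.75 and 0.59) were positive for both baits in the authors' deposited tables. CASP10, the neighbouring paralog, was not called at 0.63 (adjusted p = 0.204) and 0.57 (adjusted p = 0.287) in the authors' deposited tables. The 14 matched genes of the pathway split into 3 positive and 4 negative for ALKBH5, and with RBM33 they numbered 3 and 5, in the authors' deposited tables.

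NFE2L2, known as NRF2, stood at -0.22 (adjusted p = 0.189) and -0.30 (adjusted p = 0.158) in the authors' deposited ALKBH5 and RBM33 tables (ENSG00000116044, chromosome 2, 177227595 to 177392697, minus strand). Its listed locus shares 109184 bases with a long noncoding RNA on the same strand, AC019080.1, which was positive at 2.35 (adjusted p = 0.000275) and 1.69 (adjusted p = 0.00249) in the authors' deposited tables. That RNA averaged 2.44 and 2.94 log2 CPM, against 5.49 and 5.29 for NFE2L2, in the authors' deposited tables, and whether reads were shared was not tested. KEAP1, which targets NRF2 for degradation, was negative for ALKBH5 (-0.55, adjusted p = 0.0127) and not called for RBM33 (-0.12, adjusted p = 0.632), and the ligase scaffold CUL3 was called for neither (-0.27, adjusted p = 0.141, and -0.08, adjusted p = 0.677), in the authors' deposited tables. MAFG, a dimer partner of NRF2, was positive (1.14 and 0.92), and GCLM, a target gene in glutathione synthesis, was negative (-0.71 and -1.27) for both baits in the authors' deposited tables. Of 16 genes, 3 were positive and 6 negative for ALKBH5, and with RBM33 they numbered 1 and 2, in the authors' deposited tables, and the difference in these counts was not tested.

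**Figure D3:**
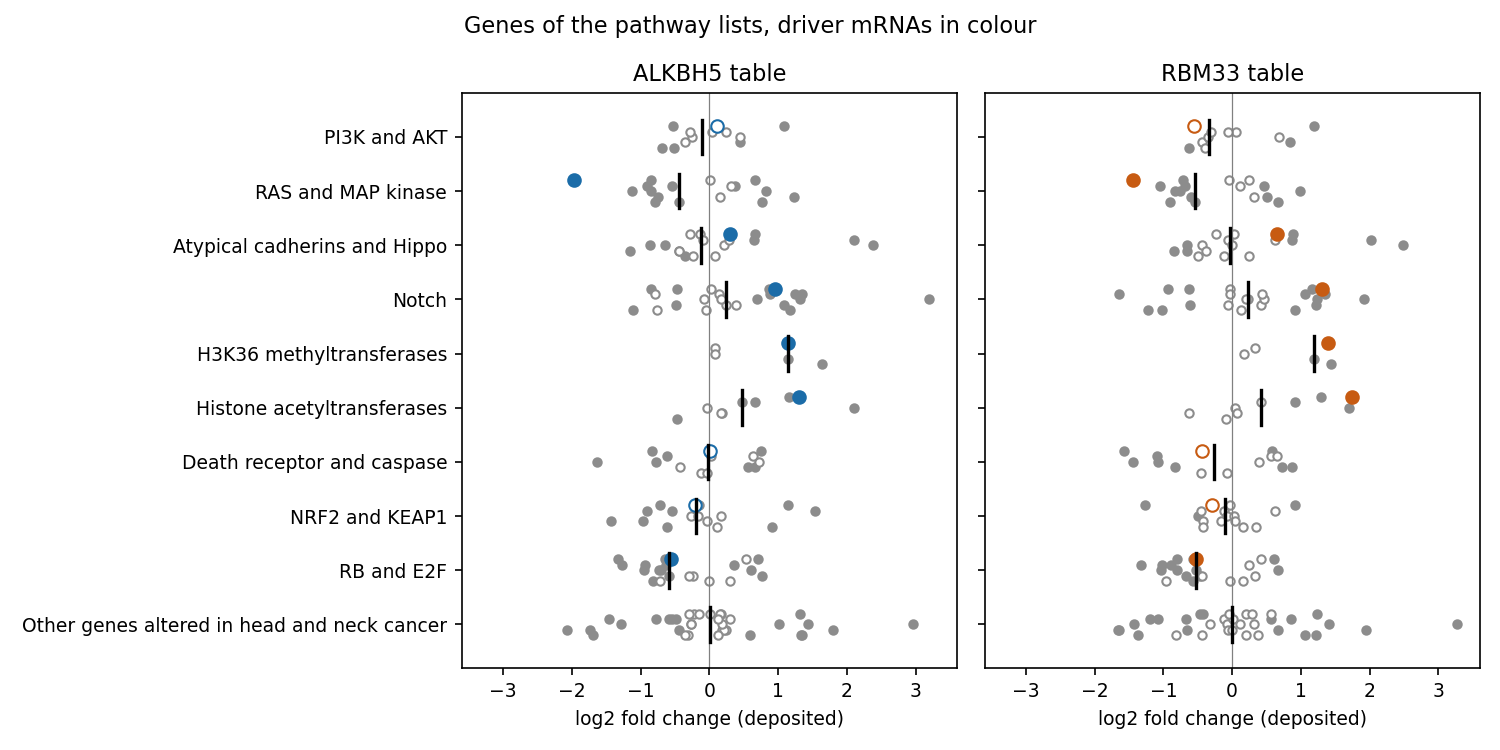
Log2 fold changes (x axis, from the authors' deposited tables) of the genes of 10 pathway lists; coloured points are the driver mRNAs, grey points the other genes, filled points are called, open points are not, and the black bar is the list's median. HRAS is the most negative point of its list in both panels, at -1.97 and -1.45, while NSD1 and EP300 lie on the positive side of theirs.

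A further list held 37 genes known to be altered in head and neck cancer that are not among the 9 drivers. Of its 35 matched genes, 8 were positive and 10 negative for ALKBH5, and with RBM33 they numbered 9 and 10, in the authors' deposited tables, with medians of 0.00 for each. The histone methyltransferases KMT2D (2.97 and 3.27) and KMT2C (1.79 and 1.95) and the demethylase KDM6A (1.43 and 1.40) led the positive side in the authors' deposited tables. At the negative end were the GTPases RAC1 (-2.07 and -1.64) and RHOA (-1.69 and -1.37) and the antigen presentation gene B2M (-1.73 and -1.65) in the authors' deposited tables.

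Values in both tables went with listed gene length, which runs from 1880 bases for HRAS to 17189 for PIK3CA among the drivers. Across the 9 drivers, Spearman's rho between listed length and log2 fold change was 0.70 and 0.37 in the authors' deposited ALKBH5 and RBM33 tables. Across all 13210 protein-coding genes rho was 0.41 and 0.45 in the authors' deposited tables. These are descriptions across genes of the same comparison, which share its libraries.

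The drivers were therefore set beside protein-coding genes of their own class of listed length, with 5 classes of about equal size. EP300, NSD1, NOTCH1, FAT1 and PIK3CA fall in the longest class, from 8652 bases, where 52.6% of genes were positive with ALKBH5 and 46.8% with RBM33 in the authors' deposited tables. All but PIK3CA of these 5 were called positive. EP300 was above that class's median by 0.77 and 1.21, NSD1 by 0.60 and 0.85, and NOTCH1 by 0.42 and 0.77, in the authors' deposited ALKBH5 and RBM33 tables. Of the class, 78.7% and 89.85% had a lower value than EP300 as given (21.2% and 10.1% with the direction turned). For NSD1 these shares were 74.0% and 81.4% (25.9% and 18.55%), and for NOTCH1 66.9% and 79.7% (33.1% and 20.3%). FAT1 lay at -0.24 and 0.11 from the class's median, and 40.2% and 55.2% of the class had a lower value as given (59.8% and 44.8% with the direction turned). PIK3CA was -0.43 and -1.09 from the same median, and 31.96% and 11.97% of the class had a lower value as given in the authors' deposited tables (68.0% and 88.0% with the direction turned).

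HRAS is in the shortest class, up to 2919 bases, where 53.6% and 52.3% of genes were negative in the authors' deposited ALKBH5 and RBM33 tables. It lay -1.15 and -0.55 from that class's medians, and 6.62% and 25.2% of the class had a lower value as given in the authors' deposited tables (93.3% and 74.8% with the direction turned). RB1 and CASP8 are in the class next to the longest, from 6134 to 8650 bases, where 24.1% and 21.7% of genes were negative and the medians were 0.18 and 0.19 in the authors' deposited tables. RB1 lay -0.74 and -0.71 from those medians, and CASP8 -0.17 and -0.63. NFE2L2, in the middle class, lay -0.15 and -0.17 from its medians in the authors' deposited tables.

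**Figure D4:**
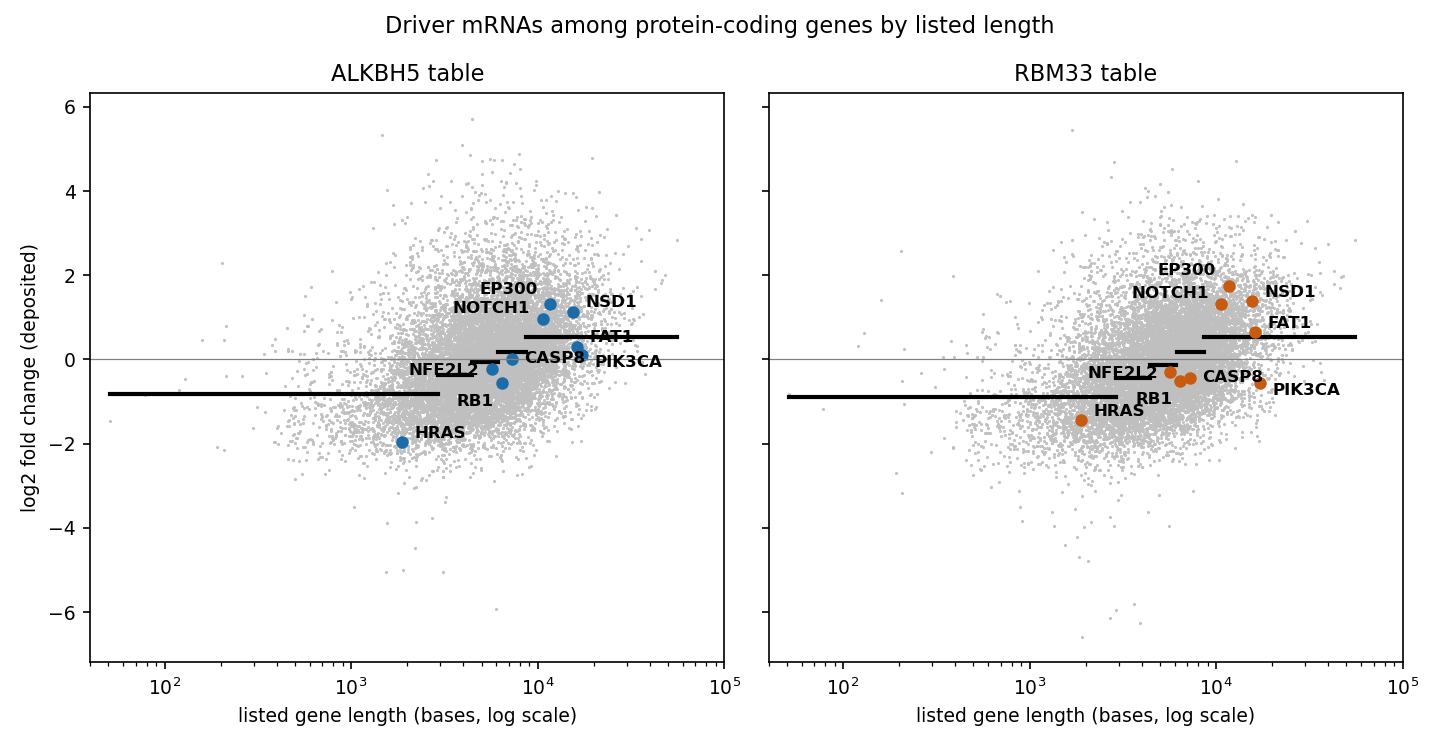
Log2 fold change (y axis) against listed gene length in bases (x axis, log scale) for 13210 protein-coding genes (grey) and the 9 driver mRNAs (coloured) in each of the authors' deposited tables; black bars are the medians of 5 length classes. The medians run from -0.81 to 0.54 for ALKBH5 and from -0.90 to 0.54 for RBM33, and PIK3CA lies below the bar of its class in both panels.

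The pair of values of a driver was shared by many other genes. The protein-coding gene nearest to EP300 over both log2 fold changes was ZNF814, a zinc finger gene, at a distance of 0.016, and 22 genes lay within 0.1 of EP300 for both baits in the authors' deposited tables. HRAS was nearest to PFDN1, a prefoldin subunit (0.026), and had 18 genes that close in the authors' deposited tables. For NSD1 the nearest was YLPM1 (0.022, with 54 genes within 0.1), for NOTCH1 PRRC2A (0.023, with 63) and for FAT1 the chromatin remodeller CHD4 (0.0034, with 98) in the authors' deposited tables. RB1 was nearest to the ligase scaffold CUL4A (0.011, with 200), NFE2L2 to CCDC92 (0.0052, with 197), CASP8 to the transcription factor MITF (0.0037, with 99) and PIK3CA to HOXB5 (0.0044, with 46) in the authors' deposited tables. Likeness here rests on 2 values per gene. The drivers at the ends of the range, HRAS and EP300, had the fewest such neighbours.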

How the data were processed

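RNA from pull-down and input libraries was sequenced as described in the report; groups and replicate numbers came from the sample titles. The submitters' processing notes name cutadapt (1.18), the aligner HISAT2 (2.1.0), Subread (1.6.4) with featureCounts, edgeR (3.24.3) and the build hg38. Low-count filter, normalization, strand setting, annotation release and contrast were not given in the sources used here; overlapping genes may thus share reads. Both tables are the authors' own comparisons: per the file headers, a gene's deposited values are a log2 fold change, log2 CPM averaged over libraries, a score (the F statistic), its p-value and the Benjamini-Hochberg adjusted p-value. Recomputing that adjustment gave the deposited values.

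Calls, medians, percentiles, length classes and overlaps were computed in Python 3.11.15 with pandas 2.3.3 and scipy 1.17.1; the adjustment code was tested on simulated data. Named genes are the 9 drivers, fixed partner genes, and up to 3 genes per list, direction and table with the smallest adjusted p; markers, bait genes, overlapping rows and nearest genes are named besides. Some genes under this rule are not reported here. The drivers and the lists were chosen with earlier results of these data known. The planned count model was not run, since the tables hold comparisons and no counts. Libraries with RBM33 siRNA were not analysed here.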

Additional observations from a re-analysis of the deposited data

How the results depend on the processing

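No paired analysis was possible because the deposited tables hold no values per library; leaving out a replicate was not run for the same reason. With a minimum log2 fold change of 1 in size, the drivers called in the ALKBH5 comparison fell to 2 positive and 1 negative. In the RBM33 comparison they fell to 3 positive and 1 negative. Under this rule the calls over all genes fell as well, to 21.0% positive and 16.2% negative in the ALKBH5 comparison. The RBM33 comparison then had 17.1% and 16.7%. At an adjusted p under 0.01 the RBM33 comparison kept 1 negative driver, since RB1 was lost. Its negative calls over all genes fell from 27.0% to 21.0%. FAT1 lost its ALKBH5 call at 0.01; its adjusted p ran from 0.0365 to 0.0459 over the re-adjusted sets of genes. Adjusting over protein-coding genes alone, or over genes of at least median abundance, changed no call of a driver it could test; PIK3CA fell under that abundance in both tables. Centring on the protein-coding medians, -0.08 for ALKBH5 and -0.13 for RBM33, raised every value and turned no driver's sign. Among the other genes named, it turned 3 uncalled values for RBM33: CUL3 to 0.0501, KAT5 to 0.0425 and KEAP1 to 0.0098. Of 200 list counts under alternatives, 148 stayed within 1.5 times and 52 fell. Centring kept the deposited adjusted p and so could drop no call. Its 40 list counts are among the 148 and say nothing on how stable the calls are.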
